A study of Mus musculus with 12 samples.

Results

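Integrins are paired receptors, each made of an alpha chain and a beta chain, through which cells hold on to the matrix around them or to other cells. Leukocytes carry a set of their own, built mainly on the beta chain Itgb2, and use it to stop on vessel walls, enter tissue and form contacts with target cells; the other integrins bind collagen, laminin, fibronectin and related matrix proteins and occur on most adherent cells, melanoma cells included. Selectins and their ligand PSGL-1 (Selplg) start the capture of leukocytes from blood, and Icam1, Icam2 and Vcam1 are the immunoglobulin-family ligands that leukocyte integrins then bind. The 32 genes described here are the 26 integrin chains, 3 immunoglobulin-family ligands, 2 selectins and Selplg, chosen by name and all found once among the 54532 genes of the deposited table.

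The samples were 12 RNA libraries from tumours of B16F10, a pigmented mouse melanoma line that was itself wild type for Trex1. The 6 iKO libraries came from Trex1 fl/fl R26CreERT2 hosts, in which tamoxifen-activated Cre expressed from the Rosa26 locus can delete Trex1 in every tissue of the host. The 6 Ctrl libraries came from Trex1 fl/wt hosts that carried the same Cre and received the same tamoxifen, so that 1 Trex1 copy could remain. All hosts were males of 8 to 12 weeks with tumours in the skin of both legs, and were dosed with 1 mg tamoxifen on each of 3 days starting at day 5 of growth. Collection followed at day 14. The cell type label gives cells sorted as negative for CD45, the common leukocyte marker, and for CD31, an endothelial marker, although the protocol text can also be read as negative for either of them. The labels do not tie libraries to mice, so p-values measure the spread between these libraries only. The question addressed is how loss of Trex1 in the host changes the adhesion genes of the sorted tumour.

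Counts summed to 29.8 to 35.5 M in iKO and 34.3 to 45.8 M in Ctrl. Trex1 had 0 counts in all 12 libraries, so the genotype could not be checked from its level. Ptprc, which encodes CD45, was at 17.4, 197 and 345 CPM (counts scaled to a common library size by the trimmed mean of M-values; lowest, median and highest library) in iKO, against 0.158, 0.542 and 15.5 CPM in Ctrl. Libraries iKO 1, the lowest of its group, and Ctrl 5, the highest of its own, stood apart. The mean log2 CPM of 10 leukocyte markers was 4.06 in iKO 1 and 6.47 to 7.27 in the other iKO libraries, against 4.18 in Ctrl 5 and 0.665 to 2.02 in the other Ctrl libraries. Summed fibroblast and pericyte markers were 14732 CPM in iKO 2, 10192 in iKO 5 and 651 to 2450 in the other iKO libraries, against 2295 to 2615 in Ctrl. Xist was at 219 CPM in iKO 2 and 117 in iKO 3, with 44 and 0 counts from 4 Y-linked genes there, against 239 to 1513 in the other iKO and 107 to 254 in the Ctrl libraries, although the labels give males. Summed pigment cell markers, the defining set of the tumour line, were 15703 to 22557 CPM in iKO and 22657 to 23045 in Ctrl. Of the 8 markers 7 were lower, against 21.4% of all tested genes. The labels call the library source single cell, but the table holds 1 column per library, and the columns were treated as bulk. In bulk libraries, more cells of a type and more RNA per cell cannot be told apart.

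Because leukocyte and matrix-binding chains sit under different promoters, 3 promoter sequences are shown for orientation: Itgam, a leukocyte alpha chain that differed widely between the groups, Icam1, its ligand, and Itgb1, the most abundant chain. Each run is the 250 bases before the RefSeq start on GRCm38.p6, 5′ to 3′ on the strand of the gene. Capitals mark GAGGAA, a core bound by ETS factors such as PU.1, or TTCNNNGAA, the site form bound by activated STAT proteins, on either strand.
Itgam, chr7:128062390-128062639, plus strand: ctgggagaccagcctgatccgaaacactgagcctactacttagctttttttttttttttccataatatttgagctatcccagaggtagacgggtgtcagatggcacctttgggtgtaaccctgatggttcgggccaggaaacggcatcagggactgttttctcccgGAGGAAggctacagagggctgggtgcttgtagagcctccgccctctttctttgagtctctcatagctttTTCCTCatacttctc
Icam1, chr9:21015690-21015939, plus strand: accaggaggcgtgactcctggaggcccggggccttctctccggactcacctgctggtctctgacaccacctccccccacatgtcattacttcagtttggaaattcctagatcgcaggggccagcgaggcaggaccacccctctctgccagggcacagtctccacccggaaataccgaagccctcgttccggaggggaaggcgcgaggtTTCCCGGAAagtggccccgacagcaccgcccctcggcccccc
Itgb1, chr8:128685404-128685653, plus strand: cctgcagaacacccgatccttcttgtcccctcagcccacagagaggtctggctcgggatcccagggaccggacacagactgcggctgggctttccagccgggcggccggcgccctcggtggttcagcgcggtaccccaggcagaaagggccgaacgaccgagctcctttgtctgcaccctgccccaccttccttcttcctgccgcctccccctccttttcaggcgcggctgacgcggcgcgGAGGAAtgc

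The Itgam window holds GAGGAA 84 to 79 bases upstream of the start and, on the other strand, 15 to 10 bases upstream. The Icam1 window holds TTCNNNGAA 42 to 34 bases upstream, and the Itgb1 window holds GAGGAA 9 to 4 bases upstream. The motifs do not overlap there. GAGGAA stands in 23.3% of 32851 RefSeq promoter windows of this length and in 9 of 23 windows of the 21 members with an entry. TTCNNNGAA stands in 7.02% of all windows and in 3 of the 23, those of Icam1, Sele and Itga10. Neither stands in the windows of Itgax and Itgb7, so that chains with large rises and chains without a call both hold and lack GAGGAA.

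Of the 32 genes, 28 passed the filter on low counts and were tested, and 19 of them (67.9%) were higher in iKO while none was lower. Among all 16164 tested genes, 25.0% were higher and 21.4% lower, 46.4% in all (edgeR quasi-likelihood test, Benjamini-Hochberg adjusted p under 0.05). The median log2 fold change of the 28 was 0.98, against 0.02 over all tested genes. In 7 of the 28 every iKO library lay above every Ctrl library, and in 0 below; over all tested genes the shares were 11.8% and 11.1%. Without iKO 2 and iKO 3, the libraries highest in Xist, 17 members were higher and 0 lower, with no call for Itga7 and Itga11. Without iKO 1 and Ctrl 5 there were 19 higher and 0 lower, with a call for Itgav and Itgb8 and none for Itga6 and Itga7. Over all genes, edgeR p before adjustment was under 0.05, in either direction, for 7990 of 16511 in the first of these fits. It was so for 8871 of 16429 in the second and 8635 of 16164 in the fit of all libraries. A member filtered out for low counts in both groups could not enter these member counts, and the 4 left out are described at the end of their classes. Itgam, Itgax, Itgb7 and Selplg would not have passed on their Ctrl counts (Ctrl medians 0.130, 0.206, 0.336 and 0.432 CPM). They were tested because they were high in iKO, so a call of lower was hardly open to them.

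The leukocyte integrins and the matrix-binding integrins differed in size of response. All 5 leukocyte chains rose, with log2 fold changes of 4.61 to 5.93 and a median of 5.47, or 44.4-fold. Of the 17 tested matrix-binding chains 8 rose, 9 did not pass the test and 0 fell, over a range of -0.13 to 2.02 with a median of 0.53, or 1.45-fold. The ranges of the classes did not overlap, which describes the genes picked and carries no test. Itgae (1.62) and Itga4 (0.54), leukocyte chains not among the 5, lay inside the matrix-binding range. Counting Itga4 with the matrix-binding class left its median at 0.54.

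**Figure D1:**
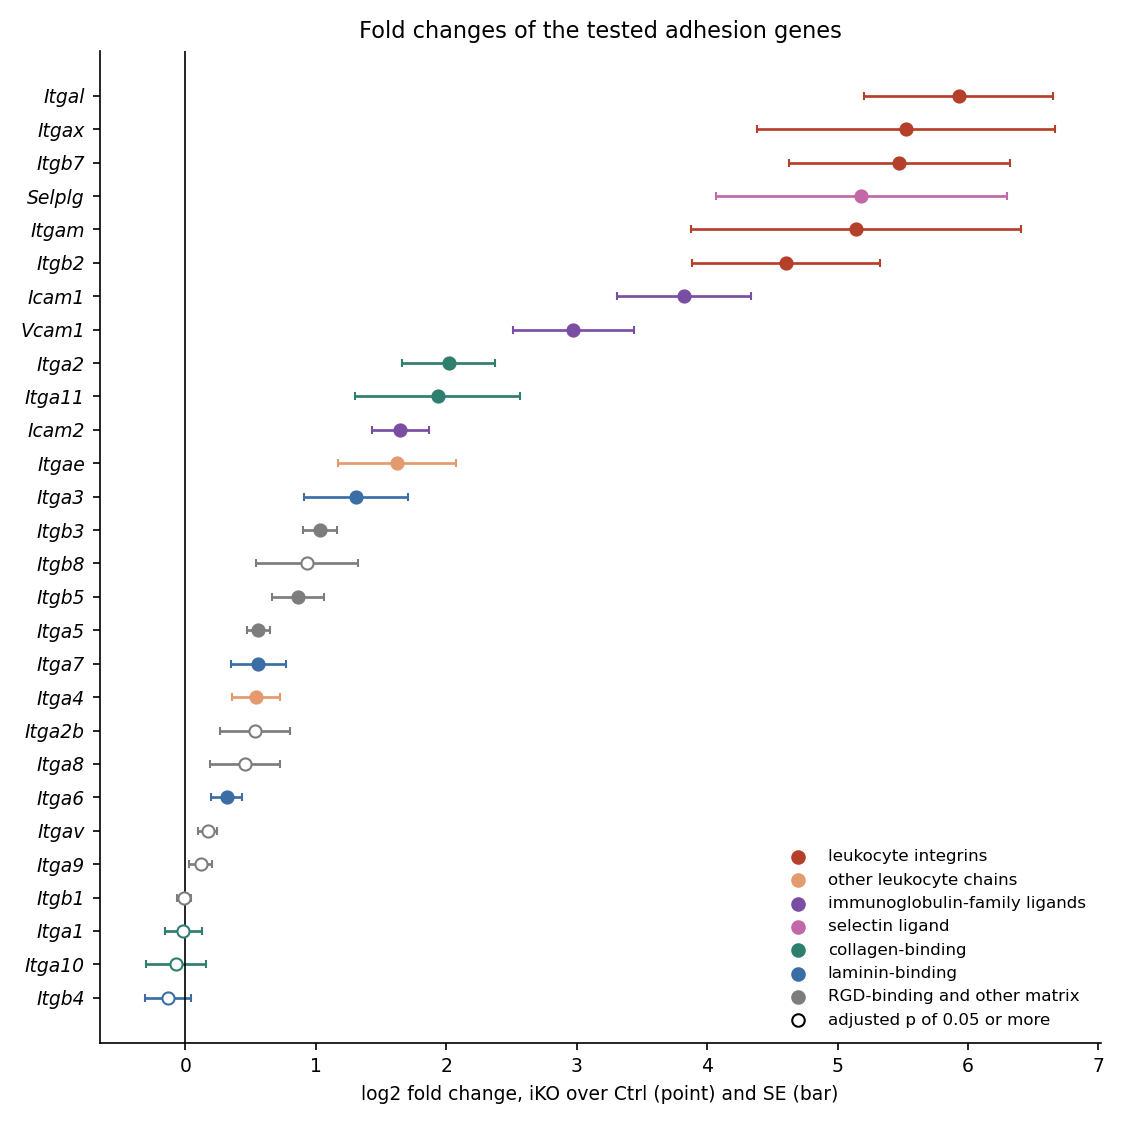
Log2 fold changes of the 28 tested adhesion genes (x axis, iKO over Ctrl, 6 libraries each; bars are SE), ordered by size and coloured by class; filled points passed the test. The 5 leukocyte integrins and Selplg lie between 4.61 and 5.93, the matrix-binding chains between -0.13 and 2.02.

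Itgb2 (ENSMUSG00000000290, mm10 chromosome 10, 77530252 to 77565708) encodes the beta chain shared by LFA-1, Mac-1 and the CD11c receptor. It was at 23.3, 216 and 334 CPM in iKO (lowest, median, highest), against 4.23, 5.11 and 24.8 CPM in Ctrl. The other 5 iKO libraries lay above every Ctrl library; iKO 1, at 23.3 CPM, lay just under Ctrl 5, at 24.8 CPM. The mean was 202 ± 105 CPM in iKO and 8.34 ± 8.11 CPM in Ctrl (SD, n = 6 each), a log2 fold change of 4.61 ± 0.72 (SE; edgeR, adjusted p = 0.000566), and 5.34 without Ctrl 5.

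Itgal, the LFA-1 alpha chain that binds ICAMs and is carried by most leukocytes, was at 4.78, 54.9 and 85.7 CPM in iKO, against 0.290, 0.667 and 2.04 CPM in Ctrl. It was the 1 leukocyte chain whose groups did not overlap, with iKO 1 at 4.78 CPM and Ctrl 5 at 2.04 CPM. Its log2 fold change was 5.93 ± 0.72 (edgeR, adjusted p = 0.000132).

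Itgam, the alpha chain of Mac-1 (CD11b) on myeloid cells, was at 4.68, 43.6 and 67.4 CPM in iKO, against 0, 0.130 and 6.34 CPM in Ctrl, where Ctrl 2 and Ctrl 3 had no count. A count of 0 allows up to 3 counts, or 0.0642 to 0.0873 CPM among the Ctrl libraries, for counting error alone. Ctrl 5 lay above iKO 1, and the other libraries of the groups were apart. The log2 fold change was 5.14 ± 1.27 (edgeR, adjusted p = 0.00732), and 7.77 without Ctrl 5. Of the Itgam exon bases 68.7% are shared with Gm49368, and how shared bases were counted is not given in the sources used here.

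Itgax, the CD11c chain found on dendritic cells and some macrophages, was at 2.91, 37.9 and 67.6 CPM in iKO, against 0.0467, 0.206 and 4.16 CPM in Ctrl. Again Ctrl 5 lay above iKO 1 alone. The log2 fold change was 5.53 ± 1.14 (edgeR, adjusted p = 0.00289), 7.68 without Ctrl 5, and with limma voom the call was lost (adjusted p = 0.0571).

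Itgb7 pairs with Itga4 to bind MAdCAM-1 in gut vessels and with Itgae to bind E-cadherin. It was at 2.52, 34.4 and 47.1 CPM in iKO, against 0.264, 0.336 and 2.59 CPM in Ctrl, with iKO 1 and Ctrl 5 nearly level. The log2 fold change was 5.47 ± 0.85 (edgeR, adjusted p = 0.000527), and 6.5 without Ctrl 5.

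**Figure D2:**
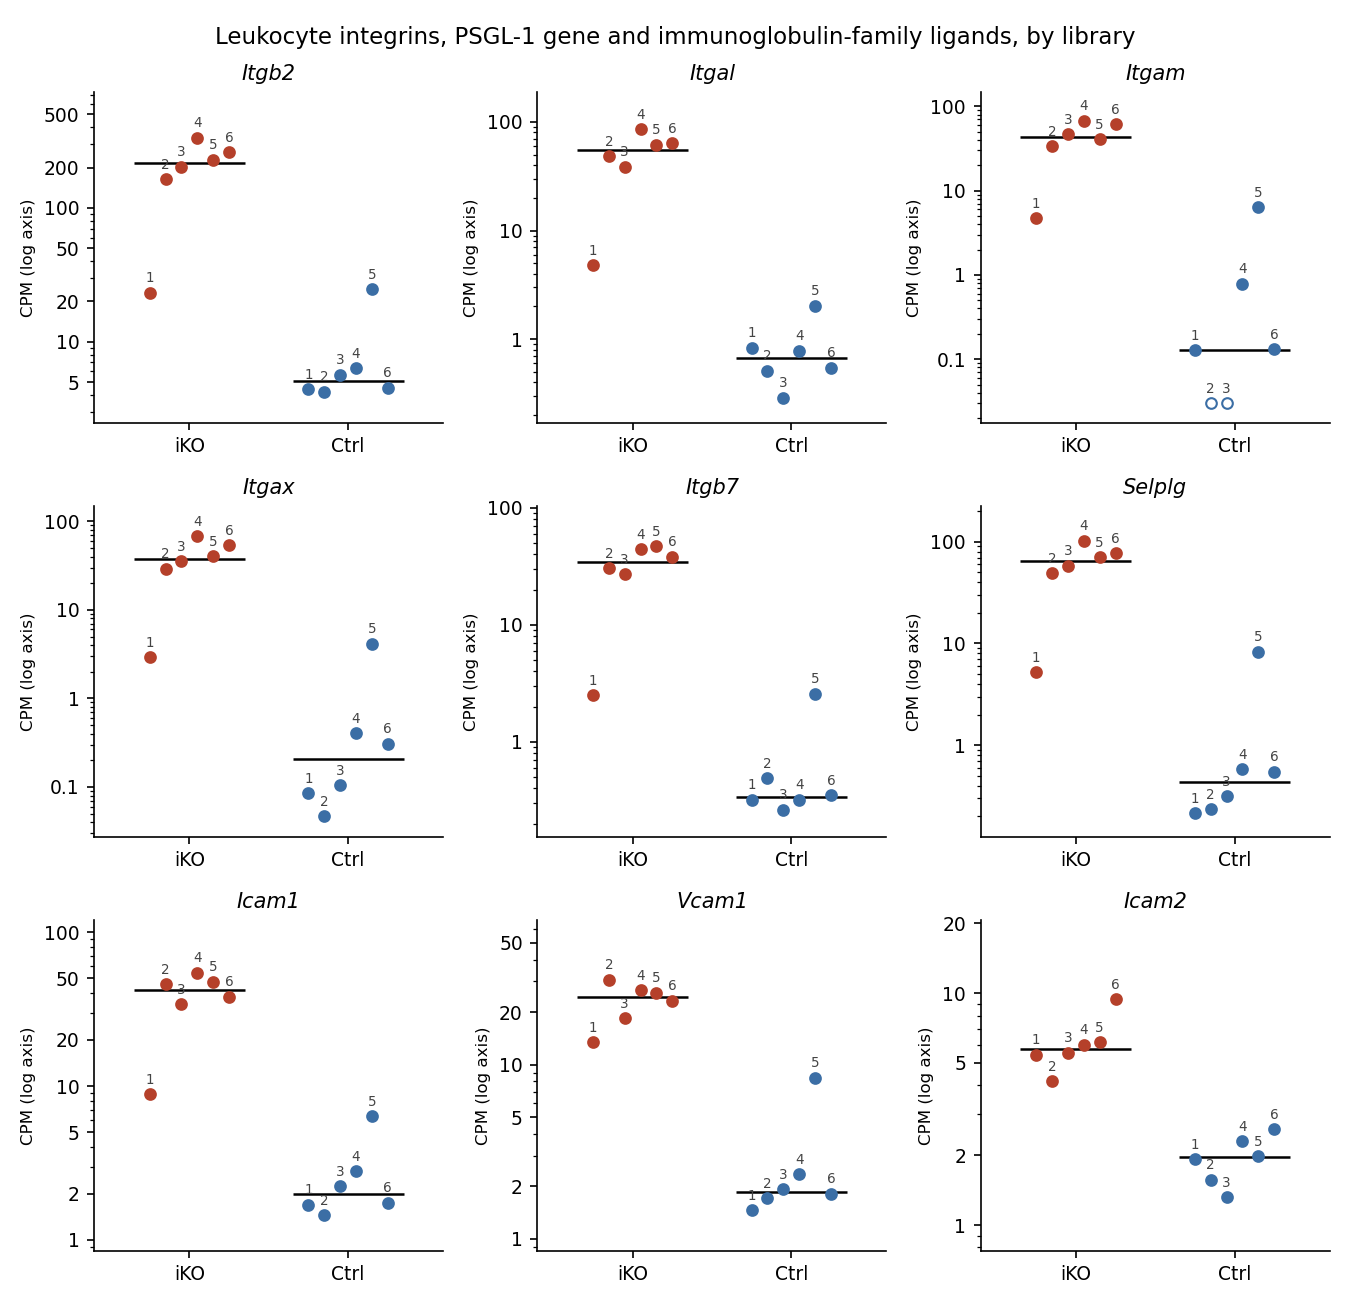
CPM of 9 genes in each library (y axis, log scale), iKO left of Ctrl, with replicate numbers over the points and lines at the medians; open points are counts of 0, drawn at the foot of the panel. In the integrin panels iKO 1 (Itgb2, 23.3 CPM) is the lowest iKO library and Ctrl 5 (24.8 CPM) the highest Ctrl library, whereas Icam1, Vcam1 and Icam2 are apart in all libraries.

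The alpha chain genes Itgam, Itgax and Itgad are neighbours within 161177 bases of mm10 chromosome 7, and Itgal lies 727501 bases before Itgam. Itgad, a chain of some tissue macrophages, was too low to test: it had 120 counts in 5 of 6 iKO libraries and 6 counts, all in Ctrl 3, in Ctrl. The ratio of summed counts was 25.0 (95% counting interval 11.2 to 69.5). The exons of Itgad share 19.7% of their bases with other loci.

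Itgae, the CD103 chain of tissue-resident T cells and of a dendritic cell subset, was low and rose less. It was at 0.484, 1.57 and 3.09 CPM in iKO, against 0.221, 0.552 and 0.877 CPM in Ctrl, with iKO 1 and iKO 2 inside the Ctrl range (log2 fold change 1.62 ± 0.45; edgeR, adjusted p = 0.00902). Itga4 pairs with Itgb1 as VLA-4, a receptor for VCAM-1 and fibronectin, and is carried by leukocytes and by melanoma cells. It was at 45, 65.6 and 103 CPM in iKO, against 33.3, 51.0 and 54.9 CPM in Ctrl (0.54 ± 0.18; adjusted p = 0.0296). The call of Itga4 was lost without iKO 4 (adjusted p = 0.0558) or iKO 5 (0.0601).

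Levels between genes were compared as TPM, the deposited counts divided by the deposited gene lengths and scaled to the same sum in each library. Itgb1, the beta chain of most collagen, laminin and fibronectin receptors, was the most abundant member, at 584, 649 and 693 TPM in iKO and 554, 650 and 700 TPM in Ctrl (lowest, median, highest). In iKO the next was Itgb2, with a median of 234 TPM, ahead of Itga5 (117), Itgav (90.8), Selplg (49.7) and Itgb3 (43.8). That rank did not hold in iKO 1, where Itgb2, at 27.0 TPM, lay below Itga5 (104), Itgav (91.8), Itga9 (44.8), Itgb3 (40.0) and Itgb5 (28.8). In Ctrl the order after Itgb1 was Itgav (84.1 TPM), Itga5 (80.4), Itga9 (32.7), Itgb3 (21) and Itgb5 (20.3), with Itgb2 at 5.53 TPM. The ranges of Itgav and Itga5 overlapped in Ctrl, as did those of Itgb3 and Itgb5.

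Itgb1 made up 55.6, 63.8 and 87.2% of the summed beta chain TPM in iKO, against 88.4, 92.7 and 93.1% in Ctrl. Itgb2 made up 3.39, 22.8 and 31.6% in iKO and 0.626, 0.774 and 3.91% in Ctrl. Itgb7 had a median share of 4.11% in iKO, against 0.0580% in Ctrl. The summed beta chains had medians of 1006 TPM in iKO and 699.9 TPM in Ctrl, while the Itgb1 ranges of the groups, given above, overlapped.

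**Figure D3:**
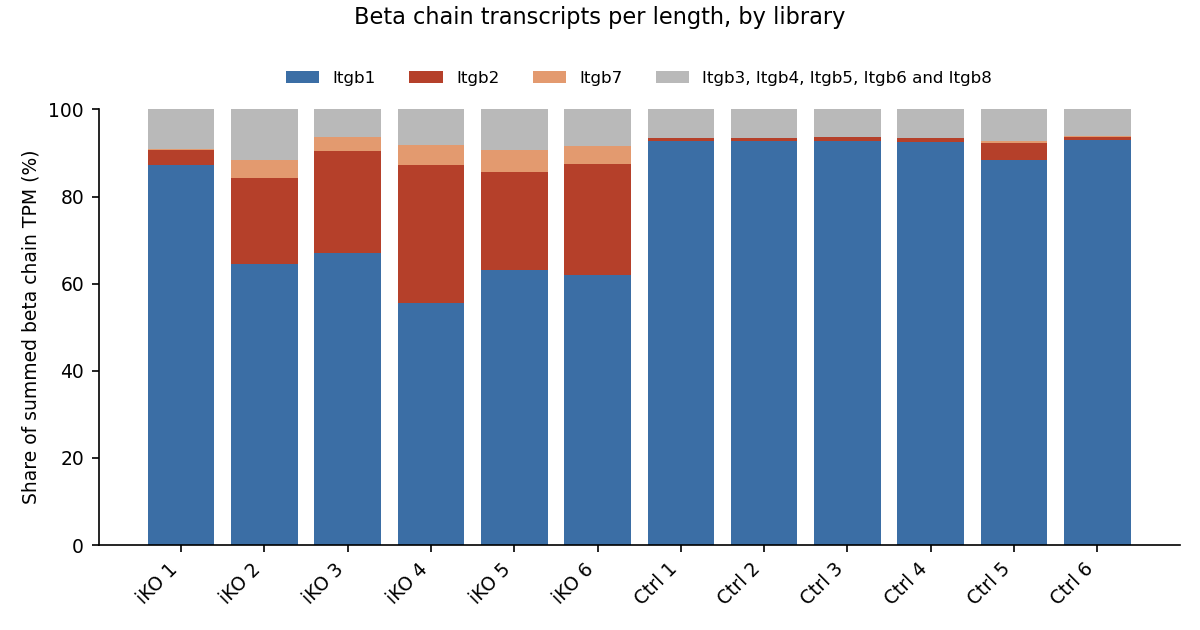
Share of each beta chain in the summed beta chain TPM (y axis, percent) of each library, iKO left of Ctrl. Itgb2 holds 19.8 to 31.6% in iKO 2 to 6, 3.39% in iKO 1, 3.91% in Ctrl 5 and under 1% in the other Ctrl libraries.

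The alpha chains that pair with Itgb2 had a steady balance in iKO. Per length, Itgal, Itgam and Itgax stood at medians of 11.7, 12.4 and 11.3% of Itgb2 in iKO, each within a range of 7.93 to 14.4% over the 6 libraries, iKO 1 included. In Ctrl the medians were 5.62, 1.76 and 2.65% of Itgb2. All 4 partners together came to 29.7, 36.1 and 39.1% of Itgb2 in iKO, against 5.45, 11.7 and 30.0% in Ctrl, the highest value being that of Ctrl 5. In Ctrl these ratios rest on small counts, from 0 to 39 per chain outside Ctrl 5. Of the Itgam exon bases 68.7% are shared with Gm49368, against 0% shared for Itgal, Itgax and Itgb2. The level of Itgam relative to these chains thus depends on how shared bases were counted, which is not known. Itgal was 25.9, 32.0 and 36.3% of the 4 partners in iKO, against 12.7, 45.9 and 88.9% in Ctrl, the lowest value being that of Ctrl 5. The iKO range thus lay inside the wider Ctrl range.

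For Itgb7 the partner ratios had lower medians in iKO than in Ctrl. Itga4 per length stood at 32.3, 41.8 and 354% of Itgb7 in iKO, against 255, 2818 and 4023% in Ctrl, and Itgae at 1.38, 3.76 and 11.6% in iKO, against 5.15, 102 and 165% in Ctrl. The lowest Ctrl ratio and the highest iKO ratio were those of Ctrl 5 and iKO 1 in both cases. Outside Ctrl 5 the Ctrl ratios rest on small counts, 10 to 21 per library for Itgb7 and 18 to 41 for Itgae. Itga4 also pairs with Itgb1 and is carried by melanoma cells, so its ratio to Itgb7 does not measure pairing.

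Among the ligands, Icam1 (mm10 chromosome 9, 21015985 to 21028817), which LFA-1 and Mac-1 bind and which inflammatory cytokines induce on many cells, was at 8.85, 42.1 and 54.5 CPM in iKO, against 1.45, 2.00 and 6.40 CPM in Ctrl. All 6 iKO libraries were above all 6 Ctrl libraries. The log2 fold change was 3.82 ± 0.51 (edgeR, adjusted p = 0.000211). Vcam1, the counter-receptor of VLA-4, was at 13.4, 24.5 and 30.7 CPM in iKO, against 1.45, 1.87 and 8.41 CPM in Ctrl, also apart (2.98 ± 0.47; adjusted p = 0.000465), and 3.66 without Ctrl 5.

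Icam2, a ligand of LFA-1 on endothelium, platelets and leukocytes, was at 4.17, 5.76 and 9.39 CPM in iKO, against 1.32, 1.96 and 2.58 CPM in Ctrl (1.65 ± 0.22; edgeR, adjusted p = 6.00e-05). Unlike the 5 leukocyte integrins, Icam2 was not highest in Ctrl 5 (1.98 CPM) nor lowest in iKO 1 (5.42 CPM). Of 10 endothelial markers 3 (30%) were higher and 1 (10%) lower, against 25.0% and 21.4% of all tested genes. The summed level of the markers was 44.3, 83.6 and 93.9 CPM in iKO, against 53.0, 54.5 and 57.1 CPM in Ctrl. The higher ones were Pecam1 (log2 fold change 1.38 ± 0.25, edgeR adjusted p = 0.000565), Kdr (2.54 ± 0.39) and Tek (1.80 ± 0.59). Egfl7 was lower (-0.73 ± 0.16). No call was made for 6, among them Cdh5 (0.27 ± 0.25, edgeR adjusted p = 0.408). The part of endothelial cells in the rise of Icam2 was not tested.

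Selplg, which encodes PSGL-1, the main ligand of P-selectin on leukocytes, was at 5.23, 64.2 and 102 CPM in iKO, against 0.214, 0.432 and 8.30 CPM in Ctrl. Ctrl 5 lay above iKO 1 and all other pairs were apart (5.18 ± 1.12; edgeR, adjusted p = 0.00358), with a log2 fold change of 7.34 without Ctrl 5. The endothelial selectins themselves were barely detected and were not tested. Sele had 2 counts over the iKO libraries and 4 over the Ctrl libraries, with a ratio of 0.626 (95% counting interval 0.0566 to 4.37), so a difference was not detectable at this depth. Selp, also stored in platelets, had 34 counts in 4 iKO libraries and 5 counts in 2 Ctrl libraries, a ratio of 8.51 (3.31 to 27.9). This interval covers counting error and not the spread between libraries, and iKO 1 and iKO 4 had 0 counts. In a fit without the low-count filter Selp did not pass (log2 fold change 2.88, edgeR adjusted p = 0.0918).

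Turning to the matrix-binding chains, the fibronectin receptor Itga5 was at 146, 180 and 212 CPM in iKO, against 115, 123 and 129 CPM in Ctrl, with no overlap (0.56 ± 0.09; edgeR, adjusted p = 0.000203). Its partner Itgb1 was at 714, 793 and 860 CPM in iKO, against 750, 811 and 837 CPM in Ctrl, with a log2 fold change of -0.01 ± 0.06 (adjusted p = 0.898). Per length, Itga5 stood at 15.1, 19.2 and 21.9% of Itgb1 in iKO, against 11.4, 12.8 and 13.5% in Ctrl.

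Itgb3, which pairs with Itgav in a vitronectin receptor linked to invasive melanoma, had the smallest adjusted p of this class. It was at 58.2, 78.7 and 99.1 CPM in iKO, against 36.8, 37.6 and 45 CPM in Ctrl, with no overlap (1.03 ± 0.13; edgeR, adjusted p = 4.64e-05). In iKO 1 Itgb3 was at 66.8 CPM, well above the Ctrl range. Itgav, its alpha chain, was at 272, 295 and 311 CPM in iKO, against 204, 271 and 283 CPM in Ctrl, and did not pass (0.17 ± 0.07; adjusted p = 0.0711). It passed without Ctrl 2 (0.0478), Ctrl 3 (0.0454) or Ctrl 5 (0.0330). Itgb3 per length stood at a median of 48.5% of Itgav in iKO and 26.5% in Ctrl.

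**Figure D4:**
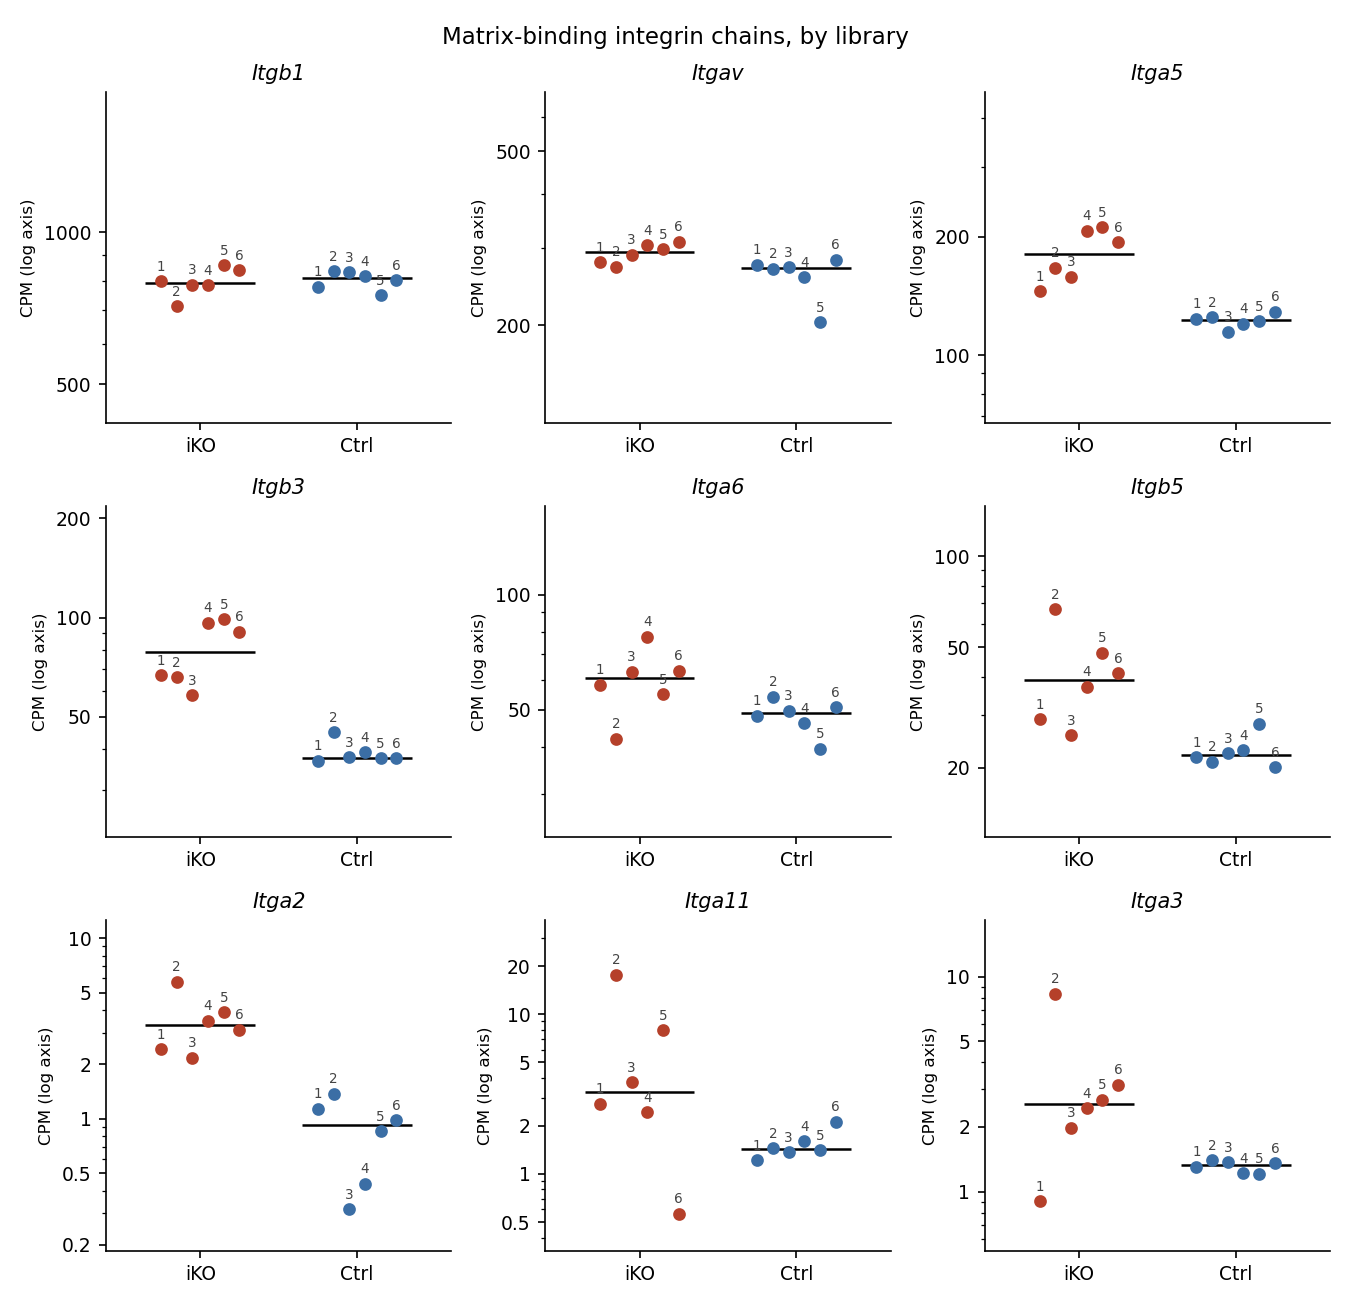
CPM of 9 matrix-binding chains in each library (y axis, log scale), iKO left of Ctrl, with replicate numbers over the points and lines at the medians. Itga5, Itgb3 and Itga2 are apart between the groups, Itgb1 (medians 793 and 811 CPM) is level, and Itga11, Itga3 and Itgb5 are highest in iKO 2.

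Itgb5, another partner of Itgav, was at 25.7, 39 and 66.8 CPM in iKO, against 20.1, 22.0 and 28.0 CPM in Ctrl (0.86 ± 0.20; edgeR, adjusted p = 0.00396). Only iKO 3 lay inside the Ctrl range. Itgb8, which with Itgav activates latent TGF-beta, was low, at 0.517, 1.77 and 2.27 CPM in iKO and 0.320, 0.724 and 1.29 CPM in Ctrl, and did not pass (0.93 ± 0.39; adjusted p = 0.0629). It passed without iKO 1 (0.0154), Ctrl 1 (0.0470) or Ctrl 3 (0.0441). Itgb6, an epithelial chain with the same function, had 16 counts in iKO 2, 4 in iKO 4 and 0 in the other iKO libraries, against 0 in Ctrl, and was not tested. The 95% counting interval of the ratio of summed counts began at 6.18 and rests mainly on iKO 2, the library highest in keratinocyte markers (240 CPM).

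The collagen receptors divided. Itga2 was at 2.18, 3.30 and 5.73 CPM in iKO, against 0.316, 0.920 and 1.38 CPM in Ctrl, with no overlap (2.02 ± 0.35; edgeR, adjusted p = 0.000473). Itga11, a chain of fibroblasts, was at 0.563, 3.24 and 17.6 CPM in iKO, against 1.22, 1.43 and 2.12 CPM in Ctrl (1.94 ± 0.63; adjusted p = 0.0257). Its call was lost without iKO 2 (1.19; adjusted p = 0.0538) or Ctrl 1 (0.0509). Itga11 was highest in iKO 2 (17.6 CPM) and iKO 5 (7.96) and lowest in iKO 6 (0.563), where the summed fibroblast and pericyte markers were 14732, 10192 and 651 CPM. Of these 10 markers 3 (30%) were higher and none lower, against 25.0% and 21.4% of all tested genes. The part of fibroblasts and pericytes in the rise of Itga11 was not tested.

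Itga1 and Itga10, the other collagen-binding chains, did not pass. Itga1 was at 11.9, 19.5 and 21.4 CPM in iKO and 14.4, 19.0 and 23.0 CPM in Ctrl (-0.02 ± 0.14; adjusted p = 0.939). Itga10 was at 2.10, 2.50 and 3.41 CPM in iKO and 2.10, 2.29 and 3.97 CPM in Ctrl (-0.07 ± 0.23; adjusted p = 0.820); 33.5% of its exon bases are shared with Gm42957. The sign of both changed when single libraries were left out.

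Among the laminin receptors, Itga3 was at 0.904, 2.56 and 8.34 CPM in iKO, against 1.21, 1.33 and 1.40 CPM in Ctrl (1.31 ± 0.40; edgeR, adjusted p = 0.0148). The libraries iKO 2 to 6 were above the Ctrl range and iKO 1 was below it. Without iKO 2 its log2 fold change was 0.77. In iKO 2 the summed keratinocyte markers, from skin epithelium that carries Itga3, were 240 CPM, against 9.96 to 23.5 CPM in the other iKO libraries and 4.37 to 7.75 CPM in Ctrl. All 6 tested keratinocyte markers were higher in iKO, against 25.0% of all tested genes. The part of keratinocytes in the rise of Itga3 was not tested.

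Itga6 was at 42.0, 60.6 and 77.7 CPM in iKO, against 39.5, 49.0 and 54.0 CPM in Ctrl (0.32 ± 0.12; edgeR, adjusted p = 0.0426), and Itga7, the muscle-type chain, at 2.22, 2.86 and 4.14 CPM in iKO, against 1.28, 2.06 and 2.63 CPM in Ctrl (0.56 ± 0.21; 0.0420). Both calls were close to the threshold. That of Itga6 was lost without any 1 of iKO 1, 3, 4 or 6 or Ctrl 1, 4, 5 or 6 (0.0554 to 0.103). That of Itga7 was lost without any 1 of iKO 1, 2 or 5 or Ctrl 3, 4, 5 or 6 (0.0543 to 0.10). Summed skeletal muscle markers were 50.7 CPM in iKO 2, 43.1 in iKO 5 and 6.94 to 10.4 in the other iKO libraries, against 7.81 to 11.1 CPM in Ctrl. Of the 5 tested markers 2 (40%) were higher, against 25.0% of all tested genes. The part of muscle cells in the rise of Itga7 was not tested. Itgb4, which joins Itga6 in the hemidesmosomes of epithelia, was at 4.45, 5.57 and 9.78 CPM in iKO and 5.90, 7.04 and 7.53 CPM in Ctrl (-0.13 ± 0.17; 0.556).

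The other 3 tested chains did not pass. Itga9, a receptor for tenascin and VCAM-1, was at 64.2, 79.8 and 97.4 CPM in iKO and 69.3, 75.1 and 79.6 CPM in Ctrl (0.12 ± 0.09; edgeR, adjusted p = 0.285). Itga8, a nephronectin receptor, was at 0.651, 1.22 and 1.42 CPM in iKO and 0.514, 0.757 and 1.07 CPM in Ctrl (0.46 ± 0.27; 0.176). Itga2b, the platelet fibrinogen receptor chain, was at 1.84, 2.23 and 5.60 CPM in iKO and 1.63, 1.84 and 2.34 CPM in Ctrl (0.53 ± 0.27; 0.120). Summed platelet and megakaryocyte markers were 6.13, 21.7 and 27.6 CPM in iKO, against 0.395, 0.887 and 14.0 CPM in Ctrl, the highest Ctrl value being that of Ctrl 5. Of these 8 markers Gp1ba was higher (1.46 ± 0.55; adjusted p = 0.0417), Pf4 did not pass (2.77 ± 1.3; 0.106) and 6 were too low to test, among them Gp9, with a highest value of 0.356 CPM, and Gp1bb, with 0 in every library.

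The leukocyte chains moved with leukocyte markers of the same libraries. Of 10 general leukocyte markers 9 were higher, of 10 T cell markers 10, of 11 macrophage and monocyte markers 10, of 5 tested dendritic cell markers 4 and of 4 tested neutrophil markers 3, and none was lower. Over all tested genes 25.0% were higher and 21.4% lower. Many of these markers were near 0 in Ctrl, such as Cd3e, Xcr1 and Csf3r (Ctrl medians of 0 CPM) and Ccr2 (0.126 CPM). Such markers passed the filter through iKO, so a call of lower was hardly open to them and these shares carry no test. Summed macrophage and monocyte markers were 277, 1783 and 2512 CPM in iKO, against 17.3, 19.98 and 484 CPM in Ctrl. Summed T cell markers were 15.1, 118 and 169 CPM in iKO, against 3.77, 5.15 and 9.40 CPM in Ctrl. Most of this Ctrl sum was Lck (median 4.79 CPM), as the other T cell markers had Ctrl medians of 0 to 0.0612 CPM. The log2 fold change was 1.93 for Lck, 3.45 for Cd4 and 6.21 to 7.76 for the rest. Summed dendritic cell markers were 28.9, 73.1 and 86.5 CPM in iKO, against 28.4, 29.6 and 40.2 CPM in Ctrl. Most of this Ctrl sum was Fscn1 (median 21.3 CPM) and Zbtb46 (7.69 CPM, no call), as the other dendritic markers had Ctrl medians of 0 to 0.692 CPM. Summed neutrophil markers were 1.39, 33.2 and 47.0 CPM in iKO, against 0.0527, 0.280 and 5.82 CPM in Ctrl. Most of this iKO sum was Csf3r (median 25.1 CPM). S100a9 and Mmp8 were also higher, at iKO medians of 2.65 and 2.58 CPM, whereas S100a8 did not pass (edgeR, adjusted p = 0.0993). Ly6g, with 4 counts over the iKO libraries and 0 over the Ctrl libraries, and Cxcr2 were too low to test. The lowest iKO library for each of these sums was iKO 1 and the highest Ctrl library was Ctrl 5.

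With the leukocyte score, the mean log2 CPM of the 10 leukocyte markers, as a covariate, none of the 28 members kept its call, and over all genes 903 were higher and 958 lower. The score is itself made of leukocyte genes, so smaller values for the leukocyte integrins were built in and do not compare the classes. The sizes moved unevenly, with SEs from 0.12 (Itgb1) to 1.73 (Itga11). The median log2 fold change of the leukocyte integrins was 0.31 with the covariate, against 5.47 without it. For the matrix-binding chains the median was 0.43 with the covariate, against 0.53 without it. Within this second class the members moved both ways. Itgb5 was at 0.22 with the covariate and 0.86 without it, Itga5 at 0.26 and 0.56, and Itga3 at 0.54 and 1.31. Itga1 was at 0.57 with it and -0.02 without it, Itgav at 0.43 and 0.17, and Itga9 at 0.43 and 0.12. Itgam (-0.43 ± 0.60), Itgax (-0.34 ± 0.37) and Selplg (-0.39 ± 0.34) were at or below 0, and Itgal was at 1.32 ± 0.69 (SE). Icam2 was at 1.24 ± 0.50, Itgb3 at 0.78 ± 0.31, Vcam1 at 0.83 ± 0.38 and Icam1 at 0.71 ± 0.38. Their adjusted p was 0.128 for Icam2, 0.124 for Itgb3, 0.181 for Vcam1 and 0.256 for Icam1 (edgeR). Score and group differ together, apart from iKO 1 and Ctrl 5, so that their effects cannot be told apart outside these libraries.

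**Figure D5:**
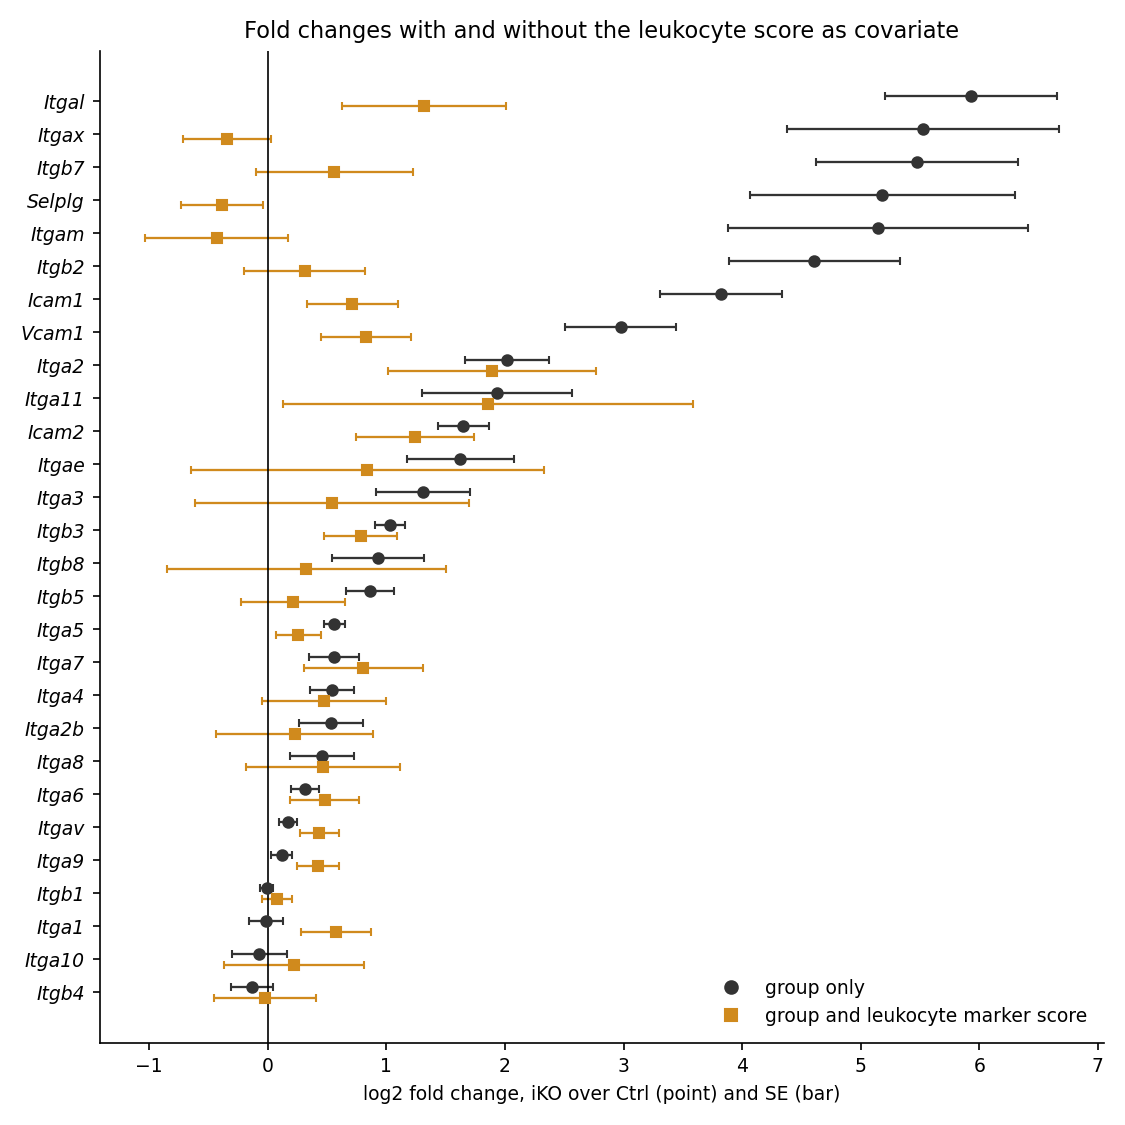
Log2 fold changes of the 28 tested genes (x axis, iKO over Ctrl; bars are SE) with group as the only term (circles) and with the leukocyte marker score added (squares). The leukocyte integrins and Selplg lie between -0.43 and 1.32 with the score and between 4.61 and 5.93 without it, while among the matrix-binding chains the values of Itga2 (1.89 and 2.02) lie close together, Itgb5 (0.22 and 0.86) is lower with the score and Itga1 (0.57 and -0.02) higher.

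Genes that work with these receptors were taken from lists of the pathway. Over all tested genes 25.0% rose and 21.4% fell, and the share in each list is to be read beside these. Of 15 tested genes of integrin activation 9 rose (60%) and 0 fell, with a median log2 fold change of 0.84. Tln1, talin, which links beta chain tails to actin, rose by 0.84 ± 0.11 (edgeR, adjusted p = 6.02e-05), and Apbb1ip (RIAM), which brings talin to integrins, by 2.93 ± 0.39 (0.000174). Fyb, an adaptor of T cells and myeloid cells, rose by 4.95 ± 0.72 (0.000367) and the GTPase Rap1b by 1.03 ± 0.17 (0.000481). Of 17 tested genes of the adhesion complex 9 rose (52.9%) and 1 fell (5.88%), with a median of 0.49. The smallest p were those of the actin-site proteins Zyx (0.97 ± 0.12) and Pxn (0.71 ± 0.10), Tns3 (0.50 ± 0.07), a tensin, and the kinase Ptk2b (3.84 ± 0.54).

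Of 14 tested further adhesion receptors and ligands 7 rose (50%) and 0 fell, with a median of 0.41, against 25.0% and 21.4% of all tested genes. Alcam, a ligand of CD6, rose by 1.24 ± 0.21, Thy1 by 1.75 ± 0.37 and the junction protein F11r by 0.65 ± 0.16. Of 10 tested genes of selectin ligand synthesis 5 rose (50%) and 1 fell (10%), with a median of 0.33. They included the transferases B4galt1 (0.80 ± 0.10), Gcnt1 (1.69 ± 0.27) and Fut4 (2.84 ± 0.48), which build the sugars of PSGL-1, and the sulfotransferase Chst2 (1.6 ± 0.34).

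Of 21 tested matrix ligands 14 rose (66.7%, against 25.0% of all tested genes) and 1 fell (4.76%, against 21.4%), with a median of 1.27. Their summed level was 6138 CPM in iKO 2, 5762 in iKO 5 and 2320 to 2792 in the other iKO libraries, against 1765 to 2072 CPM in Ctrl. The libraries iKO 2 and iKO 5 were also those with the highest fibroblast and pericyte markers, whose part in these rises was not tested. Thbs1, thrombospondin, rose by 2.09 ± 0.33 (edgeR, adjusted p = 0.000545), the basement membrane protein Nid2 by 1.35 ± 0.29 (0.00174) and the laminin chain Lamc1 by 0.50 ± 0.11 (0.00267), while Fbln5, an elastic fibre protein, fell by 0.73 on the log2 scale (0.000116). Of 12 tested tetraspanins and integrin partners 5 rose (41.7%) and 1 fell (8.33%), with a median of 0.04. Cd47, which associates with beta3 integrins, rose by 1.33 ± 0.13 (6.30e-06), the leukocyte tetraspanin Cd37 by 2.91 ± 0.46 (0.000381) and Cd82 by 0.38 ± 0.09 (0.00421), while Cd81 fell by 0.27 on the log2 scale (0.00387).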

How the data were processed

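Poly-T beads selected the RNA, and the libraries do not keep strand, per the labels' protocols. The authors deposited whole-number counts per Ensembl gene, not normalized, with a gene length in bases, on mm10 per the submitters' processing notes; aligner, counting program and strand setting were not given in the sources used here. Gene positions are those of the deposited table, whose columns the labels name. Exon overlaps came from GENCODE M21 (GRCm38), which holds all 32 members.

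The 16164 genes left after filterByExpr (minimum count 10, total 15) were compared between 6 iKO and 6 Ctrl libraries with edgeR 4.0.16 (quasi-likelihood, robust, TMM, group as the only term) in R 4.3.3, Benjamini-Hochberg adjusted, threshold 0.05. SE is the size of the log2 fold change over the square root of F. The score averages log2 CPM (prior count 2). TPM used the deposited gene lengths. In simulated counts for iKO against Ctrl (15886 genes), 34.6, 71.0 and 93.3% of genes changed by 0.5, 1 and 2 (log2) were recovered.

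Totals were 29.8 to 45.8 M; intervals (95%) and floors of 3 counts cover counting error only. Same-group pairs differed by 7.47 or more in chi-square per degree of freedom (genes with at least 20 counts), more than counting noise, so each was kept as its own library; libraries from 1 mouse could differ by more than this noise too. Alternatives were other scalings and filters, DESeq2 1.42.0, limma 3.58.1 (voom), omitted libraries, a leukocyte covariate and a replicate block. The members and lists were chosen with earlier results of these data known. All members are named, beside Trex1, Ptprc and Pecam1, and from each pathway list the called genes of lowest p, at most 4. A gene that met this rule is not reported here. Other genes were named after their values were seen. One batch is labelled.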

Additional observations from a re-analysis of the deposited data

Results flagged for a closer look

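In each group of 6 libraries, the highest and the lowest log2 CPM of each tested member were compared with their nearest neighbour. Gaps above 0.625 of the group's range are listed. Chance gives a flag in about 1 in 20 groups, and 15 flags came from 56 groups. The members share the same libraries, so their flags are not independent and the number of flags carries no test. In 7 cases iKO 1 stood below the other iKO libraries, with gaps of 0.724 for Itgal, 0.741 for Itgam, 0.732 for Itgax, 0.734 for Itgb2, 0.812 for Itgb7, 0.740 for Icam1 and 0.754 for Selplg. In 4 cases Ctrl 5 stood above the other Ctrl libraries, with gaps of 0.769 for Itgb2, 0.746 for Itgb7, 0.728 for Vcam1 and 0.749 for Selplg. Ctrl 5 was also low for Itgav, at 204 CPM against 258 in the next library (gap 0.717), and was the lowest Ctrl library for 7 of the 17 tested matrix-binding chains.

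The remaining flags were single. Itga2b was at 5.60 CPM in iKO 2, against 2.54 in the next iKO library (gap 0.712). Itga1 was at 11.9 CPM in iKO 4, against 18.6 in the next (gap 0.769). Itgb3 was at 45 CPM in Ctrl 2, against 39.1 in the next (gap 0.696).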

How the results depend on the processing

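Over the alternatives other than the leukocyte covariate, 13 to 21 members were called higher (19 as reported) and 0 lower, and 12 of the 19 calls held in each of them. With the leukocyte covariate the calls were 903 genes higher and 958 lower and 0 members higher, and the leukocyte integrin median was 0.31. The score is made of leukocyte genes, so smaller values for the leukocyte integrins were built in. Log2 fold changes turned in sign for Itgam (-0.43 ± 0.60, SE), Itgax (-0.34 ± 0.37), Selplg (-0.39 ± 0.34), Itgb1 (0.075), Itga1 (0.57) and Itga10 (0.22). Leaving out 1 library at a time gave 3707 to 4484 genes higher and 2671 to 3750 lower, 17 to 20 members higher, medians of 5.27 to 6.5 for leukocyte and 0.44 to 0.59 for matrix-binding integrins, and log2 fold changes of -0.034 to 0.021 for Itgb1, -0.061 to 0.084 for Itga1 and -0.16 to 0.075 for Itga10. With a filter at 1 CPM in 6 libraries, which left Itgae untested, Itgb1 was at 0.013 and Itga1 at 0.0062. Without iKO 2 and iKO 3 Itgb1 was at 0.032. The cause of these turns was not tested. DESeq2 called 21 members, adding Itgav and Itgb8, and limma voom 15, without Itgax, Itga3, Itga6 and Itga11. Scaling by library totals alone gave 17, without Itga6 and Itga7. Over all genes DESeq2 called 4334 higher and 3541 lower of 16127. Of 16164 genes, limma voom called 3751 higher and 3526 lower, and scaling by library totals 3749 and 3766. Without a low-count filter Itgad (4.39) and Itgb6 (4.97) passed at edgeR adjusted p of 0.0180 and 0.0443. Selp (2.88, adjusted p = 0.0918), Sele (-0.54, 0.793), Itga4, Itga6, Itga7 and Itga11 did not.

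Same-numbered iKO and Ctrl libraries did not deviate together (correlations of -0.13 to 0.25), and 1 of 6 iKO libraries correlated best with its own number. A replicate block over these numbers gave 13 members higher and 0 lower. The calls of Itga4, Itga6, Itga7, Itga11, Itga3 and Itgae were not made in it. Over all genes, edgeR p before adjustment was under 0.05, in either direction, for 7921 of 16164 with this block. Depth limits Sele, Selp, Itgad and Itgb6, and the Ctrl values of Itgam and Itgax.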

Other observations

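Some adhesion machinery genes have a form typical of blood cells beside a form of adherent cells; the genes of this paragraph were picked after their values were seen, and no test was made across them. Fermt3, the kindlin of blood cells, was at 7.49, 52.3 and 82.8 CPM in iKO, against 1.22, 1.73 and 11 CPM in Ctrl (log2 fold change 4.00 ± 0.75; edgeR, adjusted p = 0.00160). Fermt2, the kindlin of adherent cells, was at 194, 214 and 227 CPM in iKO and 195, 213 and 220 CPM in Ctrl (0.02 ± 0.05; adjusted p = 0.722). Of the focal adhesion kinases, Ptk2b had a log2 fold change of 3.84 ± 0.54 and Ptk2 one of -0.11 ± 0.06 (adjusted p = 0.178). Of the parvins, Parvg, the form of blood cells, was at 5.19 ± 0.87, Parvb fell by 0.22 on the log2 scale (adjusted p = 0.0236) and Parva was at -0.06 ± 0.07 (0.501). Lpxn, the leukocyte relative of paxillin, was at 4.81 ± 0.87, while Pxn was at 0.71 ± 0.10.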
